A study of Mus musculus with 6 samples.

Results

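Chromatin accessibility was described at 8 genes of the podocyte, the glomerular epithelial cell that carries the slit diaphragm. They were Nphs1, Podxl, Ptpro, Magi2 and Synpo, which encode structural or signalling proteins of the foot process, and Wt1, Tcf21 and Lmx1b, which encode transcription factors. These are 8 of 21757 protein-coding genes. The accessible regions counted at each gene were the distinct intervals of a pooled ATAC-seq peak list that overlapped the stretch from 3 kb upstream of the gene start to the gene end. By this rule 179 of 279569 intervals were members, and none was shared between 2 of the genes.

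ATAC-seq uses the transposase Tn5 to cut open chromatin, so that stacks of read ends mark accessible DNA. Nuclei came from kidney cortex of WT mice and of Acly cKO mice, with 3 labelled libraries in each group and the treatment given as Control in both. By the study's methods, its control animals were littermates with the genotype Acly fl/fl and no Cre. The Acly cKO animals were Acly fl/fl;Ksp-Cre, in which the Cdh16 (Ksp) promoter drives Cre in the epithelium of proximal tubules, distal tubules and collecting ducts. By this description both groups carried the floxed allele of Acly, which encodes ATP-citrate lyase, and the study asked what its loss in tubule cells does to chromatin. The ages of these animals were not given in the sources used here. No batch named in the labels holds both genotypes (1 and 2 are WT, 4 and 5 are Acly cKO), which means that genotype and batch cannot be told apart.

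By its peak names the peak list is a call on all libraries together, and it holds no column of a single library. Every value below is therefore a single pooled value without replicates, no statistical test was made, and the genotypes were not compared. The study lists 5 WT animals, and the files do not name the libraries behind the call. Some of those WT data sets had been deposited earlier by the same laboratory, and whether these animals were floxed littermates is not stated. The methods give a read shift of 100 bp without a minus sign, and its sign was not settled, so summit positions and the windows around them could be displaced from the cut sites. Fold enrichment is the height of the read pileup at a summit over the background of the call, with 1 added to both, and each interval takes the value of its highest summit by q. At all 749750 summits the fold enrichment was, within 0.01 of a step, a whole multiple of 0.0655, which is what 1 stacked read end is worth above a constant background of 14.3. The pileup at each summit could thus be recovered as a whole number, and it is given with an exact Poisson 95% interval. These intervals cover counting error only, since summits are the highest of many positions and paired ends of a fragment are not independent. In bulk cortex, few cells with open chromatin and many cells with weakly open chromatin cannot be told apart.

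Podocytes wrap the glomerular capillaries with interdigitating foot processes, and the slit diaphragm that bridges neighbouring processes is the last barrier to the loss of protein into the urine. Nephrin, the product of Nphs1, spans this slit and signals to the actin cytoskeleton through adaptor and scaffold proteins. WT1, TCF21 and LMX1B act upstream in podocyte development and upkeep, and loss of any of these genes damages the filtration barrier. Podocytes are a small share of the cells of the cortex, which consists mostly of tubule.

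The sequences just upstream of the transcription start sites (TSSs) differ in their content of CG dinucleotides (CpG). Over all protein-coding genes, promoter accessibility in the pooled list differed with the CpG content of 1 kb around the TSS, as described further below. For 7 of the genes, the 100 bases that end immediately before the TSS of the Ensembl canonical transcript are shown from the GRCm39 genome, read along the strand of the gene. Capitals mark a motif from a set of 7 that was searched.
Nphs1 promoter (chr7:30159050-30159149, plus strand): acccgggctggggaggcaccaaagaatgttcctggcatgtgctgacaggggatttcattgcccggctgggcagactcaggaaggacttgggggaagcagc
Podxl promoter (chr6:31540925-31541024, minus strand): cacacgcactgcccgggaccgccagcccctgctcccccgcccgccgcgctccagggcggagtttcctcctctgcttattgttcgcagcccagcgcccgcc
Ptpro promoter (chr6:137229176-137229275, plus strand): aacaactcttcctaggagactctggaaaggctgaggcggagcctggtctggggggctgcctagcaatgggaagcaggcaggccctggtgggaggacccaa
Magi2 promoter (chr5:19431641-19431740, plus strand): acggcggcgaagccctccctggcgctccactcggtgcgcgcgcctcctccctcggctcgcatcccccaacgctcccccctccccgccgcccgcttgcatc
Wt1 promoter (chr2:104956525-104956624, plus strand): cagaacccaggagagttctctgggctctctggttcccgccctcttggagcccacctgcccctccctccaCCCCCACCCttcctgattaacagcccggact
Tcf21 promoter (chr10:22696074-22696173, minus strand): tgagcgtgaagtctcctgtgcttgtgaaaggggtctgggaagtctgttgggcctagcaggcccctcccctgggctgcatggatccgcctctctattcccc
Lmx1b promoter (chr2:33531094-33531193, minus strand): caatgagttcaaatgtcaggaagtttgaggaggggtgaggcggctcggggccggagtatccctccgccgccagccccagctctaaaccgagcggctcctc
The stretches upstream of Magi2 and Podxl held 14 and 11 CpG, that of Lmx1b held 7, those of Nphs1, Wt1 and Tcf21 held 2 each, and that of Ptpro held 1. The classes used below rest on 1 kb around the TSS, by which Ptpro counts as CpG-rich, just above the limit. In the Wt1 promoter the capitals mark a match to GNGTGGGNG, a G-rich pattern of the type bound by WT1 itself, which lies on the opposite strand. A match is a match of letters and does not show that the factor bound there.

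All 8 genes had an interval within 1 kb of the canonical TSS, as did 75.8% of all protein-coding genes. At 6 of the 8 its fold enrichment was at least 5, against 66.2% of all protein-coding genes. The exceptions were Nphs1 and Ptpro. Promoter fold enrichment was 48.4 at Magi2, 29.5 at Synpo, 17.4 at Podxl, 9.76 at Wt1, 7.46 at Lmx1b, 5.17 at Tcf21, 3.14 at Nphs1 and 2.55 at Ptpro. The median over the 8 genes was 8.61, below the median of 19.4 over all protein-coding genes, and only Synpo and Magi2 lay above the latter. Ranked among all protein-coding genes, the promoters fell between the percentile 28.0 of Ptpro and the percentile 81.1 of Magi2, with a median percentile of 38.95. Ranked within the same CpG class, as described below, the median percentile was 56.5, on the other side of the middle, and among genes with a promoter interval it was 19.5. The side within the class depends on Synpo, whose CpG ratio of 0.593 is just under the limit of 0.6. With Synpo alone in the other class, at the percentile 33.7, that median would fall below the middle.

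In that order, the exact 95% interval of the ratio of pileups to the next gene excluded 1 for each gene down to Tcf21. The pileups were 738, 449, 265, 148, 113, 78 and 47 from Magi2 to Nphs1. The separation was narrow between Wt1 and Lmx1b, where the ratio of the pileups was 1.31 (exact 95% interval 1.02 to 1.69), and between Lmx1b and Tcf21, where it was 1.45 (1.08 to 1.96). Nphs1 and Ptpro, with 47 and 38, were not distinguished by counting error, at a ratio of 1.24 (0.789 to 1.95). Taken singly, the pileup intervals of Wt1 and Lmx1b, of Lmx1b and Tcf21, and of Tcf21 and Nphs1 overlapped. The intervals can also be too narrow, since paired ends of a fragment are not independent. They hold no spread between animals, so the order among animals is unknown.

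**Figure D1:**
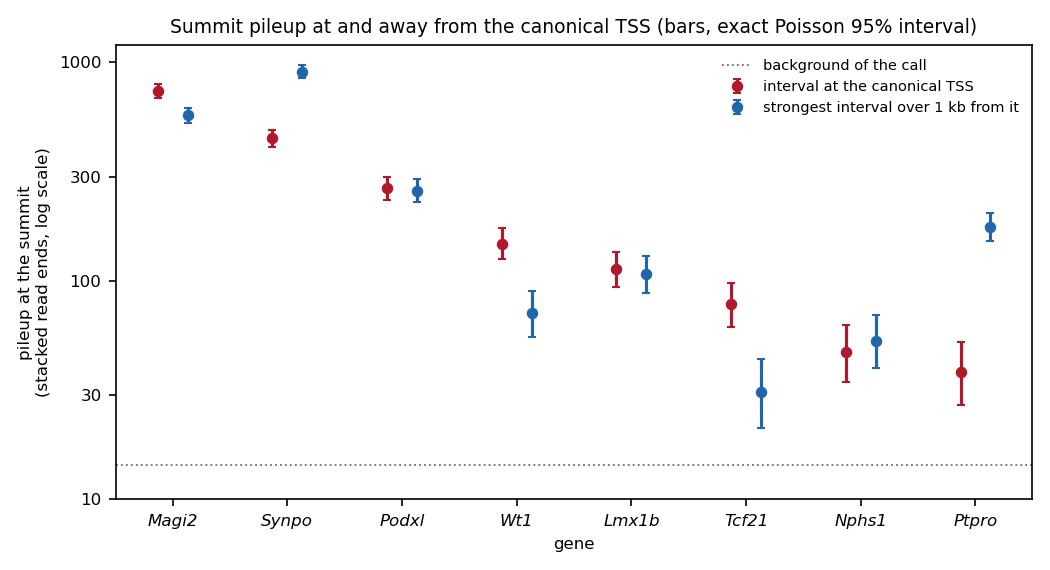
The height of the pileup at the summit (stacked read ends of the pool, log axis) is plotted for each gene at the canonical TSS in red and at the strongest interval over 1 kb from it in blue, with exact Poisson 95% intervals as bars and the background of 14.3 as a dotted line. Red points descend from 738 at Magi2 to 38 at Ptpro, and the blue point lies clearly above the red one at Synpo and Ptpro.

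CpG content divided the 8 promoters evenly. A promoter was called CpG-rich when the ratio of observed to expected CpG in 1 kb around the TSS was at least 0.6 and the GC content at least 50%. Podxl, Ptpro, Lmx1b and Magi2 were CpG-rich, and Nphs1, Wt1, Synpo and Tcf21 were CpG-poor. Over all protein-coding genes, 99.0% of 10024 CpG-rich promoters and 56.1% of 11733 CpG-poor promoters had an interval, with median fold enrichments of 38.7 and 2.49. All 4 CpG-poor members lay above the median of their class, at percentiles of 53.4 for Nphs1, 59.5 for Tcf21, 67.6 for Wt1 and 84.8 for Synpo. For Nphs1 this was within counting error. The class median of 2.49 is a pileup of 37, inside the exact interval of the Nphs1 pileup of 47 (34.5 to 62.5). Of the CpG-rich members, Magi2 lay above its class median at the percentile 65.6, while Podxl (16.1), Lmx1b (6.54) and Ptpro (1.84) were among the less accessible promoters of that class. Ptpro and Synpo were near the limit that divides the classes, with ratios of 0.603 and 0.593. Placed in the other class, Ptpro would lie at the percentile 50.4 and Synpo at 33.7. With Synpo alone moved, the median percentile within the class would fall below the middle.

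**Figure D2:**
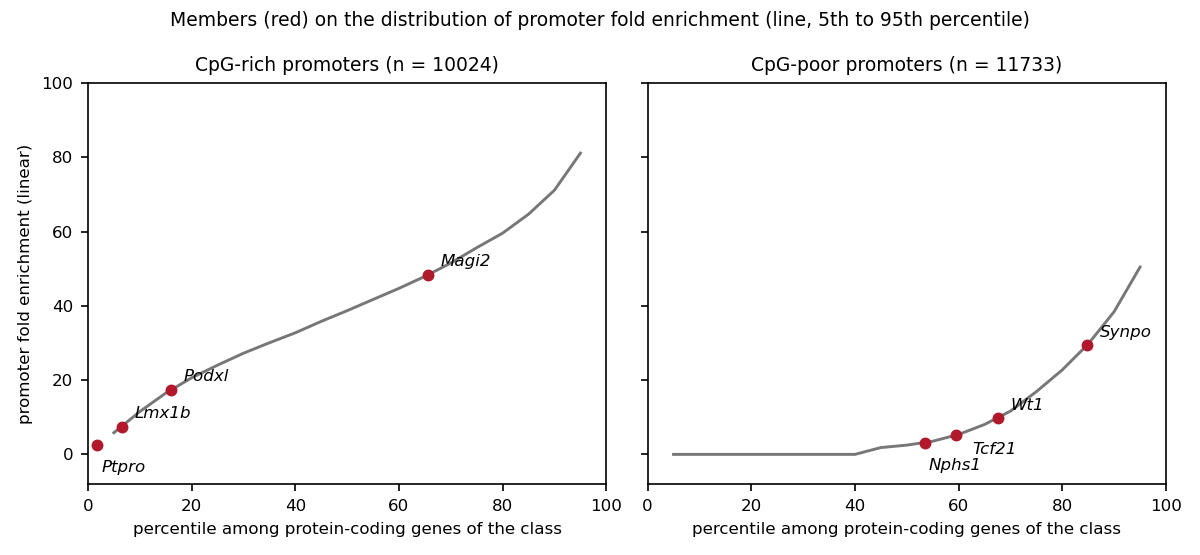
Promoter fold enrichment (linear axis) is plotted against the percentile within CpG-rich promoters on the left and CpG-poor promoters on the right, with a grey line for all protein-coding genes of the class and red points for the 8 podocyte genes. The 4 CpG-poor members sit to the right of the middle of their class, and 3 of the 4 CpG-rich members sit far to the left.

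Nphs1, on chromosome 7 (30157740 to 30186675, plus strand, GRCm39), was the only one of the 8 genes without an interval of fold enrichment of at least 5. Its 5 intervals had fold enrichments of 2.03, 2.88, 3.14, 2.42 and 3.54 from 5′ to 3′, with 4 of the 5 at a q below 1e-05, and they covered 5.45% of the region. The interval at the canonical TSS (30158846 to 30159202) had its summit at −59 bp and holds the promoter sequence shown above. The strongest interval (30183587 to 30183915) lay in intron 28, 24.7 kb downstream, with a pileup of 53 (39.7 to 69.3), 1.13 times that of the promoter (exact 95% interval of the ratio 0.747 to 1.71). Its edge lies 425 bp from another annotated Nphs1 TSS and 607 bp from the TSS of the pseudogene Rps12-ps4. The 2 intervals upstream lay beside the start of Kirrel2, which encodes a nephrin-like adhesion protein and is transcribed in the opposite direction from a TSS 2025 bp from that of Nphs1. One of them (30156933 to 30157359) covers the Kirrel2 TSS, so it belongs to both genes by position.

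Podxl encodes podocalyxin, a sialomucin whose negative charge keeps foot processes apart. It lies on chromosome 6 (31496418 to 31540924, minus strand), and its 18 intervals gave the highest density of the 8 genes, at 3.79 per 10 kb. The promoter interval (31539200 to 31541562) reached a pileup of 265 (234 to 299) with a summit 22 bp downstream of the TSS. An interval in intron 1 (31525923 to 31527076), 14.1 kb into the gene, reached 259 (228 to 293) and a fold enrichment of 17.0, at a ratio to the promoter of 0.977 (0.820 to 1.16). Only 2 further intervals passed 5, at 8.38 just beyond the 3′ end and at 7.53 in intron 4, while the remaining 14 lay between 1.83 and 3.67.

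Ptpro encodes a receptor tyrosine phosphatase of the podocyte surface, also known as GLEPP1, and lies on chromosome 6 (137229276 to 137440263, plus strand). Its promoter was the least accessible of the 8, with a −log10 q of 5.91 beside its fold enrichment of 2.55, and only 43 of the 100 bases shown above fell inside the interval (137229233 to 137230199). The body of the gene was different. Of its 28 intervals, 10 reached a fold enrichment of 5, against 24.5% of all intervals in the list, and all 10 had their summits in introns. The 2 highest stood at 11.7 with a pileup of 177 (152 to 205) each, 1 in intron 2 (137346913 to 137348219), 119 kb from the TSS, and 1 in intron 25 (137431975 to 137433537), 204 kb from it. Next was an interval in intron 1 (137341218 to 137342111), which reached 10.1. The strongest intronic value was thus 4.56 times the promoter value, the largest such ratio among the 8 genes. The edge of the interval in intron 25 lies 949 bp from a TSS of a shorter Ptpro transcript, and the interval in intron 2 has no annotated Ptpro TSS within 39500 bp.

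Magi2 encodes a membrane-associated scaffold protein with PDZ domains that binds nephrin. It lies on chromosome 5 (19431741 to 20909790, plus strand), and its region of 1481 kb is longer than that of 99.9% of protein-coding genes. It held 82 of the 179 intervals (45.8%), yet only 0.554 per 10 kb, the lowest density of the 8, and 3.40% of the region was covered. The promoter interval (19429050 to 19434163) was the highest promoter of the 8, with a pileup of 738 (686 to 793). It also covers the TSS of the noncoding gene 4921504A21Rik. An interval at the 3′ end (20905439 to 20908343), in coding exon 21 and 1475 kb from the TSS, followed at a fold enrichment of 37.5 and a pileup of 572. This interval holds a TSS of another annotated Magi2 transcript and the TSS of the gene Gm29254, so its assignment to the full-length transcript is uncertain.

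Between these ends, 79 Magi2 intervals had summits in introns, with a median fold enrichment of 2.62, and 15 of them reached 5. Over all intervals of the list, those at TSSs included, the median was 2.55, and 24.5% reached 5. These are therefore not values for intronic intervals alone. Introns 1 and 2, of 451 and 387 kb, held 27 and 20 intervals, and intron 6 held 9. The highest intronic values were 21.5 in intron 10 (20703583 to 20704676), 20.9 in intron 2 (20137737 to 20139303) and 17.8 in intron 5 (20430720 to 20433639). The interval in intron 5 also covers an annotated TSS of another Magi2 transcript. Intervals were unevenly spaced, with a median gap of 11.9 kb and a longest gap of 187 kb, which ran from 340 to 527 kb downstream of the TSS, across the end of intron 1.

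The strongest intronic summits of these genes are shown next, as 100 bases around the summit, because at Ptpro, Podxl and Magi2 they reach values far above the background of the call away from the TSSs of the gene itself, and at Nphs1 the intronic interval is the highest of the gene, though near another of its TSSs. None of these stretches holds a searched motif.
Nphs1 intronic summit (chr7:30183793-30183892, plus strand): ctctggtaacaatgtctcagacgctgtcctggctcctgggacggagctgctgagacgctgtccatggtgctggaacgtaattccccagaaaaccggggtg
Podxl intronic summit (chr6:31526765-31526864, minus strand): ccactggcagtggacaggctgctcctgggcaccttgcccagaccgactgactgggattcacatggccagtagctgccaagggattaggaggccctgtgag
Ptpro intronic summit (chr6:137347918-137348017, plus strand): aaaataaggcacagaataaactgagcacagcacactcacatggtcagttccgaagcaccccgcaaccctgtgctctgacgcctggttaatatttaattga
Magi2 intronic summit (chr5:20704220-20704319, plus strand): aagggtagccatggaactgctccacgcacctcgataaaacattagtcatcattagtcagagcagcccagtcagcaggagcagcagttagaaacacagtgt
The Podxl stretch held 1 CpG against 11 in the promoter of the same gene, while the pileups at the 2 sites did not differ beyond counting error. The Ptpro stretch held 3 and the Magi2 stretch 2. At Nphs1 the intronic stretch held 5, more than its promoter.

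The 3 transcription factor genes had modest promoters and few strong intervals elsewhere. WT1 is a zinc-finger factor needed for the formation of the glomerulus and for nephrin expression. Its gene lies on chromosome 2 (104956625 to 105003961, plus strand) and held 12 intervals, of which the promoter interval alone reached 5. That interval (104955659 to 104959959) was 4301 bp wide with 14 summits, had a fold enrichment of 9.76, and covers the TSS of the antisense noncoding gene Wt1os. The next highest were 4.71 in coding exon 3 (104962505 to 104963996), 4.58 in intron 5 (104993186 to 104993887) and 4.39 at position −3132 bp from the TSS. The promoter pileup of 148 (125 to 174) exceeded that of 71 (55.5 to 89.6) in exon 3 by more than counting error.

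Tcf21 encodes a basic helix-loop-helix factor of podocytes and kidney stroma. It is the shortest of the 8 genes, on chromosome 10 (22692803 to 22696073, minus strand), and held 2 intervals. The promoter interval (22695090 to 22696796) had a fold enrichment of 5.17 and a pileup of 78, and the other (22693541 to 22694038), in the 3′ UTR, had 2.10 and 31. The noncoding gene Gm10824 has a TSS inside each of them. Lmx1b encodes a LIM-homeodomain factor that controls podocyte and basement membrane genes, and lies on chromosome 2 (33450977 to 33531093, minus strand). Of its 16 intervals, 3 reached 5, namely the promoter at 7.46 (33530405 to 33532794), an interval with its summit at −2196 bp, which reached 7.07 (33533004 to 33533753), and an interval in intron 2 at 6.22 (33505881 to 33507488). The pileups of the first 2, 113 (93.1 to 136) and 107 (87.7 to 129), did not differ beyond counting error, at a ratio of 0.947 of the second to the first (0.720 to 1.24). The remaining 13 lay at or below 3.99, most of them in the long intron 2. The Lmx1b promoter interval covers the TSS of the noncoding gene C130021I20Rik. At 5 of the 8 members the promoter interval held a TSS of another gene, as it did at 50.7% of the protein-coding genes with a promoter interval.

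Synpo encodes synaptopodin, an actin-binding protein of foot processes that is also made in neurons. It lies on chromosome 18 (60726087 to 60793214, minus strand), and it was the most accessible of the 8 genes over its whole length. Its 16 intervals covered 89.5% of the region, more than at 95.2% of protein-coding genes. Of these intervals 7 reached a fold enrichment of 5, against 24.5% of all intervals in the list. The highest value of all 179 intervals, 59.4 with a pileup of 907 (849 to 968), was in intron 1 (60732881 to 60748165), in an interval of 15285 bp with 48 summits. That interval also covers an annotated TSS of another Synpo transcript, though its highest summit lies 3812 bp from the nearest annotated TSS. Its fold enrichment was 2.02 times the value of 29.5 at the canonical promoter (60754703 to 60763943). Its pileup exceeded the 449 (408 to 493) there by more than counting error. Upstream of the canonical TSS but inside the gene, an interval of 12206 bp (60775895 to 60788100) reached 33.0 and covers TSSs of longer Synpo transcripts. Another of 28.0 lay in coding exon 3 (60725267 to 60730063), 295 bp from the TSS of Myoz3, a muscle gene. The annotation gives Synpo 40 different TSSs, so its canonical TSS is 1 of many.

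**Figure D3:**
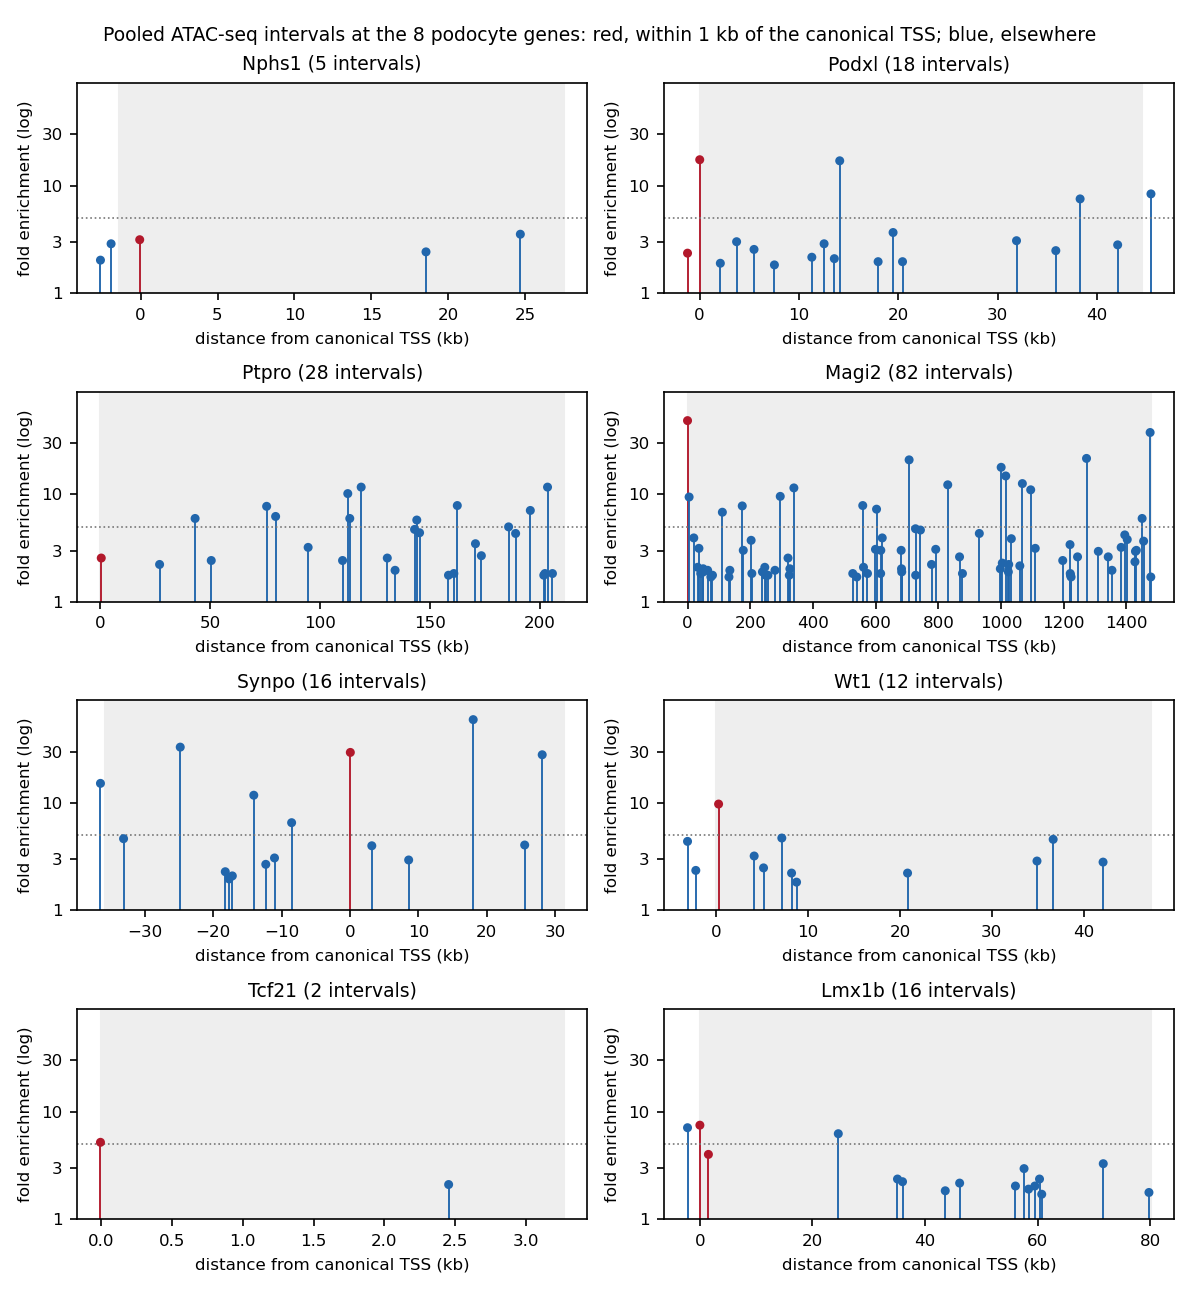
Each panel plots the fold enrichment of every interval of a gene (log axis) against the distance of its summit from the canonical TSS in kb along the direction of transcription, in red for intervals within 1 kb of that TSS and in blue elsewhere, with the gene body shaded and a dotted line at 5. Nphs1 stays below the line throughout, Tcf21 and Wt1 cross it only at the TSS, Ptpro crosses it only inside the gene, and Synpo and Magi2 show the highest points.

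Of the 8 genes, 5 had their highest interval at the canonical TSS (Magi2, Podxl, Wt1, Lmx1b and Tcf21) and 3 had it elsewhere (Synpo, Ptpro and Nphs1). The highest interval of Synpo covers another annotated TSS of the same gene. At Podxl, Lmx1b and Nphs1 the exact interval of the ratio between the strongest other interval and the TSS included 1. Of the 179 intervals, 10 lay within 1 kb of a canonical TSS and 169 further away. Of the latter 37 reached a fold enrichment of 5, against 24.5% of all intervals in the list. Summits fell in introns for 145 intervals (81.0%), in exons for 13, upstream of the canonical TSS for 20 and downstream of the canonical transcript for 1. At a distance of over 3 kb from any annotated TSS were 125 intervals (69.8%, Wilson 95% interval 62.7 to 76.1), against 57.1% of the 183376 intervals in all protein-coding regions. Without Magi2 the share was 59.8%. The Wilson interval treats intervals as independent, although 82 of the 179 were at Magi2, so it cannot settle a difference.

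The strength of the members' intervals was close to that of the list. A q below 1e-05 was reached by 108 (60.3%, 53.0 to 67.2), against 54.9% of all intervals, and a fold enrichment of 5 by 43 (24.0%, 18.4 to 30.8), against 24.5%. The median fold enrichment was 2.88 at the members and 2.55 over all intervals, and the median width was 417 against 434 bp.

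Per length, the 8 genes spread on both sides of the typical gene. The median number of intervals per 10 kb was 2.10, against 1.86 for all protein-coding genes, with Podxl (3.79), Tcf21 (3.19), Wt1 (2.38), Synpo (2.28) and Lmx1b (1.93) above and Nphs1 (1.57), Ptpro (1.31) and Magi2 (0.554) below. The covered share had a median of 15.9% against 16.7%. Synpo (89.5%), Tcf21 (35.2%), Podxl (30.6%) and Wt1 (20.6%) lay above, and Lmx1b (11.1%), Ptpro (7.66%), Nphs1 (5.45%) and Magi2 (3.40%) below.

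**Figure D4:**
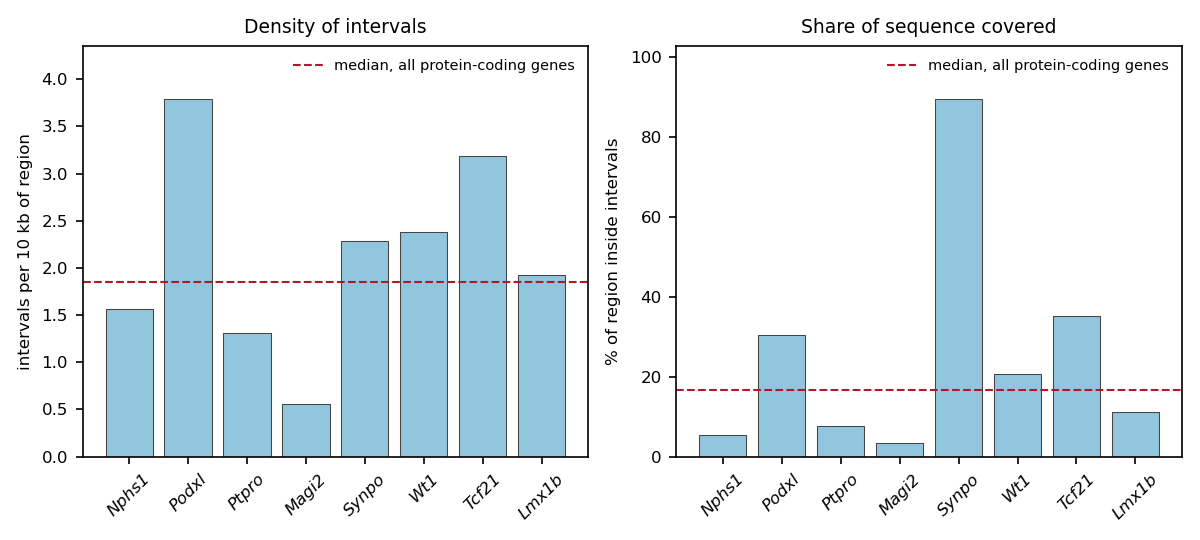
Bars give the intervals per 10 kb of region on the left and the percentage of the region inside intervals on the right for each of the 8 genes, with the median of all protein-coding genes as a dashed line at 1.86 and 16.7%. Podxl is the highest on the left, Synpo stands far above the others on the right at 89.5%, and Magi2 is the lowest on both.

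Motifs of podocyte and tubule factors were counted as exact letters on both strands in 200 bp around each summit. The WT1-type pattern GNGTGGGNG was in 13 of the 179 windows (7.26%), against 7.25% of all windows, and the TCF21-type E-box CAGCTG in 27 (15.1%), against 15%. The LMX1B-type TAATTA was in 10 (5.59%), against 4%, and the FOXC-type TGTTTAC in 2 (1.12%), against 2.8%. The TEAD-type GGAATG was in 21 (11.7%), against 13.9%. The tubule patterns HNF4-type CAAAGTCCA and HNF1-type GTTAATNAT were in 1 (0.559%) and 2 (1.12%) windows, against 0.884% and 1.29%, and all 3 were at Magi2. The HNF1-type pattern can contain TAATTA. For each of the 7 motifs the Wilson interval of the members' share included the share in all windows. These intervals treat windows as independent, although 82 of the 179 were at Magi2, so they cannot settle a difference. In windows of 400 bp the WT1-type pattern was in 17.9% against 13.5% of all windows, and the LMX1B-type in 9.50% against 8.59%. The shares of the other motifs lay below those of all windows at that width. Within the set, the WT1-type pattern was in 2 of 5 windows at Nphs1, 4 of 16 at Synpo, 3 of 16 at Lmx1b, 1 of 12 at Wt1 and 3 of 82 at Magi2, and in none of those at Podxl, Ptpro and Tcf21. The E-box was in 2 of 5 windows at Nphs1, 5 of 16 at Lmx1b, 3 of 12 at Wt1 and 3 of 16 at Synpo. It was in 3 of 18 at Podxl, 10 of 82 at Magi2, 1 of 28 at Ptpro and 0 of 2 at Tcf21. The mean GC content of the windows was 51.6% at the members and 50.8% over the list.

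The other podocyte genes had a median promoter value above that of the 8. The list held 42 slit diaphragm, cytoskeletal, matrix, signalling and transcription factor genes. All 42 had a promoter interval, against 75.8% of all protein-coding genes. A fold enrichment of 5 was reached by 41, against 66.2%. The median of the 42 was 25.0, with 25 above the median of all protein-coding genes. Of these 42 promoters 29 were CpG-rich, against 4 of the 8 described here, and 99.0% of all CpG-rich promoters had an interval. The highest were Nck1 (71.0), Fat1 (60.0) and Hey1 (59.8), which are also used outside the podocyte. The lowest were Kirrel2 (2.88), Crb2 (5.76) and Arhgap24 (7.79). By role the medians were 15.1 for 8 slit diaphragm genes, 33.1 for 10 actin and scaffold genes, 33.7 for 9 adhesion and basement membrane genes, 18.2 for 9 signalling genes and 30.6 for 6 transcription factors. Kirrel2, which faces Nphs1, was the only gene of this list below 5.

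Marker lists for other cell types, of 8 genes each, set these values in the tissue. Median promoter fold enrichment was 13.6 for a podocyte list of 6 genes, all among the 8 and without Tcf21 and Lmx1b, 13.9 for the proximal tubule, 11.1 for the thick limb and distal tubule, 8.28 for mesangium and stroma, 5.04 for endothelium, 2.10 for immune cells and 2.19 for genes of other organs. No promoter of the other-organ genes reached 5, and the highest, at Ins2, had 3.40, close to Nphs1 at 3.14. Counting the whole region, their strongest intervals reached 21.0 at Alb, 16.8 at Gfap and 12.8 at Neurod1. The median of the strongest interval was 6.74 for genes of other organs and 10.7 for the 8 podocyte genes. It was 24.3 for all protein-coding genes and 32.2 for the other podocyte genes. The remaining lists had 19.6 (thick limb and distal tubule), 14.5 (proximal tubule), 11.7 (endothelium), 9.72 (stroma) and 9.20 (immune cells). A longer region offers more intervals to pick from, and 7 of the 8 podocyte genes had a region longer than the median gene. All 8 proximal tubule promoters reached 5 (5.30 to 33.1), against 66.2% of all protein-coding genes. CpG class also differed between the lists, with 1 CpG-rich promoter of 8 in the proximal tubule, the thick limb and distal tubule, and stroma, 3 in endothelium, 2 for other organs and none for immune cells, against 4 at the 8 genes. The covered share had medians of 57.9% in the thick limb and distal tubule and 43.4% in the proximal tubule, against 15.9% at the 8 podocyte genes, 25.0% in stroma, 14.4% for other organs, 12.7% in endothelium and 4.49% for immune cells.

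**Figure D5:**
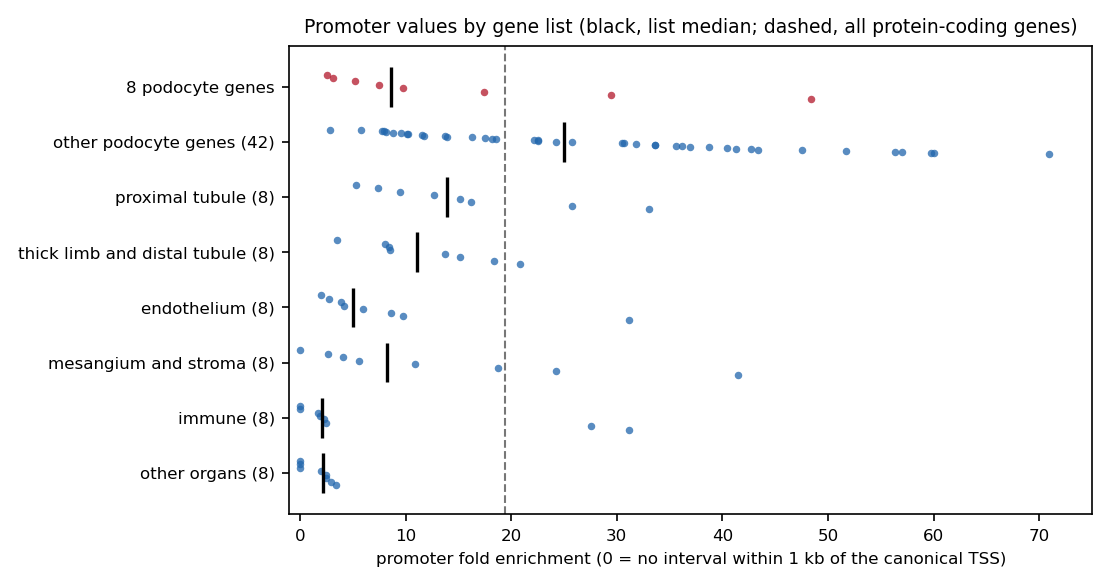
Each point is the promoter fold enrichment of a gene (linear axis, 0 where no interval lay within 1 kb of the canonical TSS), in rows for the 8 podocyte genes in red and the other lists in blue, with a black bar at each list's median and a dashed line at 19.4, the median of all protein-coding genes. The 8 genes range from 2.55 to 48.4 with a median of 8.61, and the points of the other organs all lie at or below 3.40.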

How the data were processed

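Bulk ATAC-seq of mouse kidney cortex was measured in 3 WT and 3 Acly cKO libraries. By their methods, the authors used fastp for trimming and Bowtie2 2.3.4.3 for alignment to mm39, dropped duplicate reads and those without a unique position, called peaks with MACS3 3.0.0 at a q of 0.05, extending reads to 200 bp with a shift of 100 bp, and removed blacklisted regions with BEDTools 2.29.1. The deposited peak list gives, for each summit, a linear fold enrichment (a ratio to the background), its −log10 p-value and −log10 q-value, a score derived from q and the summit offset, all computed by the authors on the pooled libraries. A second deposited file, of unfiltered summits, gives −log10 q as well, and no summit in the 8 regions was absent from the filtered list.

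From these files, summits were collapsed to distinct intervals, which were placed on GENCODE M39 (GRCm39). A summit lay within 1 kb of the TSS for 81.5% of 15319 genes when GRCm39 positions were used, and for 37.2% with GRCm38 positions. The depth of each library is unknown from the files. The background was the same at every summit, without a local correction, so broad accessible domains are not discounted. Promoter values are the highest interval within 1 kb of the TSS of the Ensembl canonical transcript, with 0 where there was none, and percentiles are shares of protein-coding genes with a lower value. Sequences were read from the GRCm39 genome. Shares carry Wilson 95% intervals, which treat intervals of the same gene as independent. Ratios of pileups carry exact binomial intervals, which cover counting error only.

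All 8 members are described, each by the interval at its canonical TSS and its strongest intervals, and for the other podocyte genes the 3 highest and 3 lowest promoters are named. The members, lists and motifs were chosen with earlier results of these data known, and motif letters come from general knowledge. Some genes and motifs of these lists are not reported here. Likeness of patterns across samples cannot be computed from 1 pooled call. Tools were Python 3.11.15, pandas 2.3.3, numpy 2.4.6, pysam 0.24.0, scipy 1.17.1, samtools 1.23.1 and matplotlib 3.10.9.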

Additional observations from a re-analysis of the deposited data

How the results depend on the processing

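Of 53 alternatives, 39 kept their value within the spread allowed and 14 moved. The 179 intervals became 108 at a q under 1e-05, 43 at a fold enrichment of at least 5, 512 when summits inside the regions were counted, and 97 without Magi2. The median promoter percentile of 38.95 became 19.5 among genes with a promoter interval, and within the same CpG class it was 56.5, on the other side of the middle. That side depended on Synpo, which lies near the limit between the classes. The median of 2.10 intervals per 10 kb became 0.414 at a fold enrichment of at least 5 and 5.54 with summits. The share of 69.8% over 3 kb from any TSS became 81.6% with protein-coding TSSs only and 59.8% without Magi2. In windows of 400 bp the WT1-type motif was in 17.9% (13.5% of all windows), the E-box in 22.9% (24.5%) and the TEAD-type motif in 20.7% (23.7%), and without Magi2 the HNF4-type and HNF1-type motifs were in 0%. The moved counts and densities, and the percentile among fewer genes, follow from the alternatives' own construction. The moved shares depend on which intervals were counted, those of Magi2 among them, and on the width of the window. How much of those moves comes from the construction alone was not tested. The strongest interval was the same in 8 of 8 members when picked by fold enrichment. No paired analysis was possible because the files hold only a pooled call, and for the same reason no replicate could be left out. Weak intervals such as those at Nphs1 are limited by counting error.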
